A study of Bos taurus with 5 samples.

Results

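The 4 genes described here encode the actins and tropomyosins of the striated muscle thin filament that carried the symbols ACTA1, TPM2, TPM3 and ACTC1 in the expression table. They were chosen by symbol alone, and each symbol matched 1 gene. Together they held 6 of the 13391 transcripts and 4 of the 9022 genes listed. The tissue was longissimus dorsi, the long muscle along the spine. It came from 5 animals of the Jiaxian Red breed at an age of 18 months, with 1 library of total RNA per animal. The spread between libraries is therefore the spread between animals plus that of dissection and library preparation. All 5 libraries formed 1 group with no treatment, control or second breed, and the comparisons below therefore set genes against each other within the same library. Values are FPKM, fragment numbers scaled by the length of the transcript and the mapped fragments of the library, and those of a gene are the sum over its listed transcripts. Because FPKM are scaled by transcript length, levels of different genes can be set side by side. The tissue was whole muscle, in which fewer cells of a type and less RNA per cell cannot be told apart.

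Actin subunits polymerise into the thin filament along which myosin pulls, and tropomyosin lies as a coiled coil along that filament. With troponin, tropomyosin covers and uncovers the sites on actin to which myosin binds when calcium is released. ACTA1 encodes the actin of adult skeletal muscle and ACTC1 the actin of heart and of developing skeletal muscle. TPM2 encodes beta-tropomyosin, found in both slow and fast fibres. TPM3 encodes the slow-fibre alpha-tropomyosin and, from other exons, tropomyosins of non-muscle cells. The fast-fibre alpha-tropomyosin comes from a further gene, TPM1.

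The summed FPKM of the libraries ran from 193706 to 223251, and the read depth behind them is unknown, since the table holds no counts. The 6136 genes that averaged 1 FPKM or more are called detected below. Of 11 marker genes of skeletal muscle fibres 6 were listed and all 6 were detected. They were led by the slow myosin heavy chain gene MYH7 at 3329 ± 276 FPKM (SD, n = 5) and the fast light chain gene MYLPF at 2608 ± 501 FPKM. The fast myosin heavy chain genes MYH1 and MYH2 were not analysed here, so this order does not set slow against fast fibres. Some of the 6 detected markers were uneven between animals. MB, the myoglobin gene, was at 106, 133, 153, 214 and 766 FPKM in libraries 1 to 5. CKM, the muscle creatine kinase gene, was at 35.5, 14.9, 18.5, 9.67 and 2.50 FPKM in the same libraries. Library 5 was thus the highest for MB and the lowest for CKM, and their SD of log2(FPKM + 1) was 1.12 and 1.26.

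ACTA1, TPM2 and TPM3 stood among the most abundant of the listed genes in every animal, while ACTC1 was present at a small fraction of their level. Ranks and shares of the summed FPKM refer to the 9022 listed genes only. Genes that are not listed, some abundant muscle genes possibly among them, have no part in them. Together the 4 genes held 5.59%, 5.64%, 5.94%, 5.10% and 5.37% of the summed FPKM in libraries 1 to 5, a mean of 5.53% ± 0.314 (SD, n = 5). ACTA1 alone held 2.49% ± 0.287, TPM2 2.03% ± 0.126, TPM3 1.01% ± 0.0970 and ACTC1 0.0100% ± 0.00675.

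ACTA1 was the most abundant of the 4 genes in all 5 animals. Libraries 1 to 5 gave 5214, 5476, 5658, 4749 and 4575 FPKM for it, with a mean of 5134 ± 463 (SD, n = 5). Libraries 1 to 3 were the higher and libraries 4 and 5 the lower ones, and the highest was 1.24-fold above the lowest. By level ACTA1 ranked between 3 and 7 among all listed genes of a library. In the order of mean levels of genes with a symbol it stood between COX2 and TPM2. It was above COX2, a mitochondrially encoded subunit of cytochrome c oxidase, in only 2 of 5 libraries, so these neighbours did not separate. The gene, ENSBTAG00000046332, covers chromosome 28 from 1400372 to 1403383, in coordinates copied from the deposited table.

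TPM2 came next. Its levels were 3539, 4087, 4312, 4619.6 and 4457 FPKM in libraries 1 to 5, averaging 4203 ± 419 (SD, n = 5). Library 1 was the lowest, and the highest was 1.31-fold above it. TNNC1, the gene of the troponin C of slow fibres and heart, followed in the order at 3976 ± 830 FPKM, and TPM2 was above it in 3 of 5 libraries, so that this pair did not separate either. TPM2, ENSBTAG00000011424, lay on chromosome 8 from 59856503 to 59864645.

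TPM3, in the same order of libraries, was at 2044, 1953, 2390.4, 1998 and 2016 FPKM and averaged 2080.2 ± 177 (SD, n = 5). Library 3 was high and the other 4 lay within a narrow range. TPM3 stood between TNNT3, which encodes the fast troponin T, and MYL6B, an alkali light chain gene of myosin. It exceeded TNNT3 in 1 of 5 libraries and MYL6B in 4 of 5, so neither neighbour was on the same side of it in every animal. TPM3, ENSBTAG00000033217, lay on chromosome 3 from 16318664 to 16337316.

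ACTC1 was far lower, at 39.3, 7.58, 26.9, 18.1 and 10.3 FPKM in libraries 1 to 5, with a mean of 20.4 ± 12.9 (SD, n = 5). Libraries 1 and 3 were high and libraries 2 and 5 low, with a 5.19-fold difference between the extremes. Its rank among all listed genes ran from 533 in library 1 to 2688 in library 2. Its neighbours in the order of mean levels, the mitochondrial ribosome gene CHCHD1 and the peptide-amidating enzyme gene PAM, were both exceeded by ACTC1 in 2 of 5 libraries, so the place of ACTC1 in that order differed between animals. ACTC1, ENSBTAG00000005714, lay on chromosome 10 from 30288637 to 30293908.

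**Figure D1:**
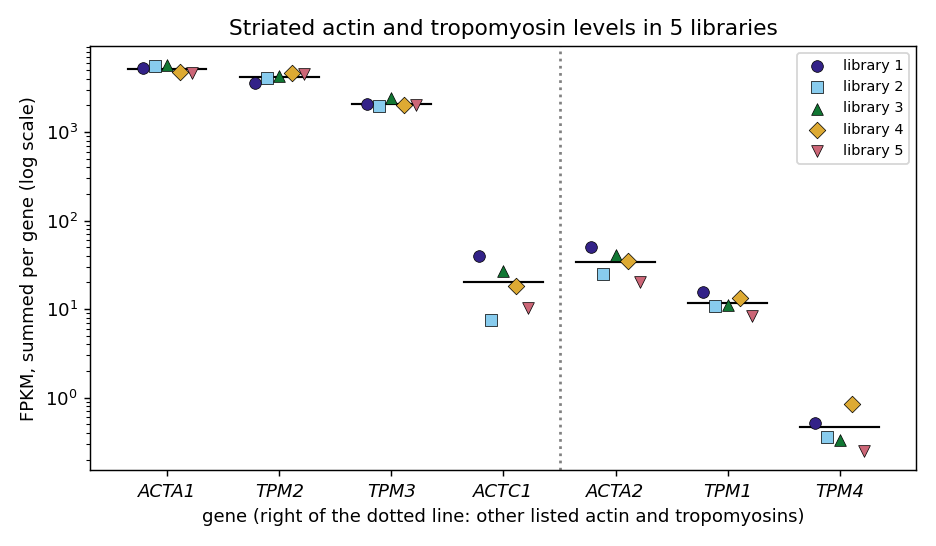
FPKM summed per gene (log scale) in each of the 5 libraries (symbols) with the mean of the 5 (line), for the 4 genes and, right of the dotted line, for ACTA2, TPM1 and TPM4. ACTA1, TPM2 and TPM3 lie between 1953 and 5658 FPKM with little spread, while ACTC1 lies between 7.58 and 39.3 FPKM.

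The order ACTA1, TPM2, TPM3, ACTC1 held in 5 of 5 libraries, although the first step was small in some animals. On the log2(FPKM + 1) scale ACTA1 over TPM2 averaged 0.29 ± 0.24 (SD, n = 5), a 1.22-fold excess. The linear ratio was 1.47, 1.34 and 1.31 in libraries 1 to 3, but 1.03 in both library 4 and library 5. The spread of this ratio between animals was thus close to its mean.

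TPM2 over TPM3 averaged 1.01 ± 0.18 on the log2 scale, a 2.02-fold excess of the beta form, and ran from 1.73 in library 1 to 2.31 in library 4 as a linear ratio. ACTA1 over TPM3 was the steadiest of the 6 pairs, at 1.30 ± 0.12 on the log2 scale and 2.47-fold. For ACTA1 over ACTC1 the log2 ratio was 8.12 ± 0.89, with a linear ratio from 133 in library 1 to 723 in library 2. TPM2 over ACTC1 averaged 7.83 ± 0.996 and TPM3 over ACTC1 6.82 ± 0.86 on the log2 scale (SD, n = 5).

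Each of the 6 pairs pointed 1 way in 5 of 5 libraries. The exact two-sided sign-flip permutation test gave p = 0.0625 for each, 0.0625 after Benjamini-Hochberg adjustment over the 6 pairs, which is the smallest value that 5 libraries allow. The test thus could not reach 0.05, and the pairs share genes and are not independent.

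In both ACTA1 and TPM2, 1 transcript carried nearly all of the signal. ACTA1-201 averaged 5076 ± 446 FPKM (SD, n = 5), or 98.9% ± 1.04 of the gene. ACTA1-202, whose interval on chromosome 28 from 1400448 to 1402542 lies inside that of ACTA1-201, was at 152, 55.0, 46.8, 16.4 and 22.0 FPKM in libraries 1 to 5. It held 2.92% of ACTA1 in library 1 and between 0.345% and 1.004% in the other 4. The minor transcript thus differed 9.29-fold between animals, while ACTA1-201 differed 1.23-fold.

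TPM2-202 averaged 4120 ± 435 FPKM (SD, n = 5), or 98.0% ± 0.673 of TPM2, and spanned chromosome 8 from 59857421 to 59864645. TPM2-201, from 59856503 to 59863866, was at 112, 74.0, 83.9, 61.8 and 84.8 FPKM in those libraries, which was 3.15%, 1.81%, 1.95%, 1.34% and 1.90% of TPM2. In library 1 the minor transcripts of ACTA1 and TPM2 were both at their highest and TPM2-202 was at its lowest. The values of overlapping transcripts are estimates that divide shared fragments, and the labels do not say how the authors divided them.

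TPM3 and ACTC1 each rested on 1 listed transcript, TPM3-202 and ACTC1-201. The numbering of TPM3 has a gap at 201, which was not analysed here, so its sum may be partial. The table does not say whether TPM3-202 encodes the muscle or a non-muscle form. ACTA1, TPM2 and ACTC1 had no gap below their highest number. The labels do not say how fragments shared by the closely similar coding sequences of the actin genes were assigned, so ACTA1 and ACTC1 values are uncertain to that extent, above all for ACTC1, the lower of the pair. ACTC1 made up 0.748%, 0.138%, 0.473%, 0.380% and 0.225% of the striated actin sum in libraries 1 to 5. The part of shared fragments in these values was not tested.

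**Figure D2:**
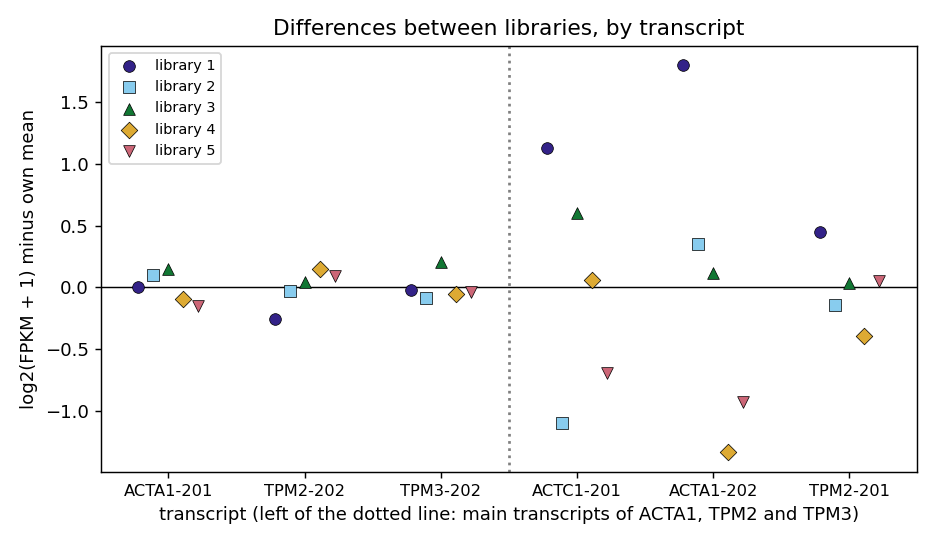
Difference of log2(FPKM + 1) from the transcript's own mean in each of the 5 libraries (symbols), for the 6 listed transcripts of the 4 genes. The main transcripts of ACTA1, TPM2 and TPM3, left of the dotted line, stay close to 0, whereas ACTC1-201 and ACTA1-202 spread widely and library 1 is the highest in each of the 3 transcripts on the right.

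ACTA1, TPM2 and TPM3 varied less between animals than most genes, and ACTC1 varied more. The SD of log2(FPKM + 1) over the 5 libraries was 0.13 for ACTA1, 0.15 for TPM2 and 0.12 for TPM3, against a median of 0.25 over all detected genes. Only 14.4%, 20.2% and 10.4% of the other detected genes had a smaller SD than ACTA1, TPM2 and TPM3. Among the 28 genes with a mean of at least 1000 FPKM, 3 had a smaller SD than ACTA1, 6 a smaller SD than TPM2 and 1 a smaller SD than TPM3.

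ACTC1 had an SD of 0.91, above that of 95.4% of detected genes and of 98% of the 200 genes nearest to it in mean level, whose median SD was 0.20. For ACTA1, TPM2 and TPM3 the 200 nearest genes reach down to 109 FPKM, and 9%, 13.5% and 6.5% of those had a smaller SD.

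A library was called apart when its gap to the nearest of the others, on the log2 scale, exceeded 0.71 of the whole range of the 5. This was met by 7.37% of the detected genes and by 1 of the 4 genes, TPM3, whose gap ratio was 0.774 with library 3 high. The ratio for TPM3 was 0.335 when each library was rescaled to the same total and 0.910 with median-ratio size factors, so the call depended on the scaling. Without library 3 the SD of TPM3 was 0.028, against 0.12 with it. Without library 1 the SD of TPM2 was 0.075, against 0.15 with it.

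The extremes of the abundant genes depended in part on the scaling. Library 3 was the highest in TPM3 and library 1 the lowest in TPM2 with the deposited values, with equal totals and with size factors. The lowest library of ACTA1 was library 5 with the deposited values and with size factors but library 4 with equal totals, and that of TPM3 was library 2 with the deposited values but library 4 with either rescaling. The highest library of ACTA1 was library 3, or library 2 with size factors, and that of TPM2 was library 4, or library 5 with equal totals. For ACTC1 library 1 was the highest and library 2 the lowest in all 3.

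**Figure D3:**
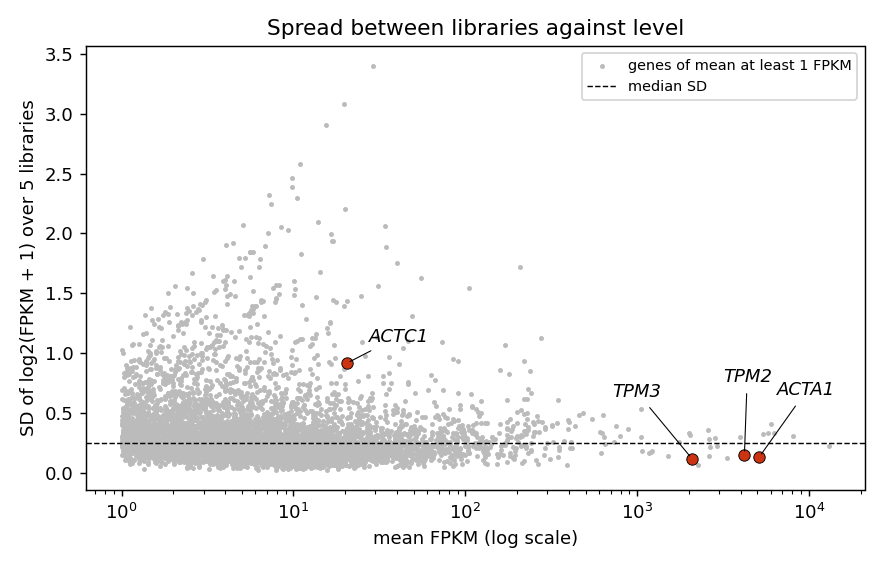
SD of log2(FPKM + 1) over the 5 libraries against mean FPKM (log scale) for the 6136 detected genes (grey), with the 4 genes in red and the median SD as a dashed line. ACTA1, TPM2 and TPM3 lie below the median of 0.25 at the far right, and ACTC1 lies above most genes at its level.

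The tropomyosin sum exceeded the actin sum in every animal. ACTA1 and ACTC1 together were at 5253, 5484, 5685, 4768 and 4585 FPKM in libraries 1 to 5. TPM2 and TPM3 together were at 5583, 6040.1, 6702, 6617 and 6473 FPKM in the same libraries. The ratio of the actin to the tropomyosin sum was 0.941, 0.908, 0.848, 0.720 and 0.708, below 1 in 5 of 5 libraries, and averaged -0.29 ± 0.19 on the log2 scale (SD, n = 5). Actin subunits outnumber tropomyosin chains in the assembled filament as a matter of textbook structure, and these values are of transcripts, not proteins. The tropomyosin sum leaves out TPM1 and TPM3-201, and either sum may lack transcripts that were not analysed here.

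The other thin filament subunits were also abundant, and of 8 troponin genes 6 were listed and all 6 detected. The troponin C sum, which held TNNC1 alone, was 0.543 to 0.771 of the tropomyosin sum, the troponin T sum of TNNT1 and TNNT3 0.572 to 0.781, and the troponin I sum of TNNI1 and TNNI2 0.188 to 0.253. TNNC1 was lowest in library 1 at 3030 FPKM, the library in which TPM2 was lowest too, and highest in library 4 at 5101 FPKM, as was TPM2 with the deposited values. NEB, which encodes nebulin, the ruler protein along the filament, averaged 1518 ± 148 FPKM, or 0.295 ± 0.0208 of the actin sum (SD, n = 5).

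TPM3 made up 36.6%, 32.3%, 35.7%, 30.2% and 31.1% of the TPM2 and TPM3 sum in libraries 1 to 5, with a mean of 33.2% ± 2.82 (SD, n = 5). Libraries 1 and 3 had the higher shares. TNNI1, the slow troponin I gene, made up 61.9%, 54.8%, 54.7%, 40.5% and 52.5% of its pair with the fast gene TNNI2 in the same libraries. TNNT1, the slow troponin T gene, made up 45.1%, 37.0%, 46.0%, 44.1% and 45.6% of its pair with TNNT3. MYL2, the slow regulatory light chain gene, made up 14.0%, 12.9%, 12.8%, 18.4% and 18.3% of its pair with MYLPF. MYBPC1 made up 88.0%, 87.0%, 87.4%, 90.4% and 88.2% of its pair with MYBPC2, the fast myosin-binding protein C gene. The library with the largest share was thus library 1 for TPM3 and TNNI1, library 3 for TNNT1 and library 4 for MYL2 and MYBPC1. With 5 animals no correlation between these shares was computed. TNNT1 and MYL2 have gaps in their transcript numbers, and TPM2 is not confined to fast fibres, so none of these shares measures the share of slow fibres. Over the thick filament and troponin genes of slow fibres 7 of 7 were listed and 6 detected, with a median SD of 0.26, led by TNNC1, MYH7 and MYBPC1, with MYL2 the most variable at an SD of 0.50. Of 9 such genes of fast fibres 5 were listed and detected, with a median SD of 0.19, led by MYLPF, TNNT3 and the light chain gene MYL1 at 1065 ± 127 FPKM (SD, n = 5). MYH1, MYH2, MYH4 and TNNC2 of the fast list were not analysed here.

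**Figure D4:**
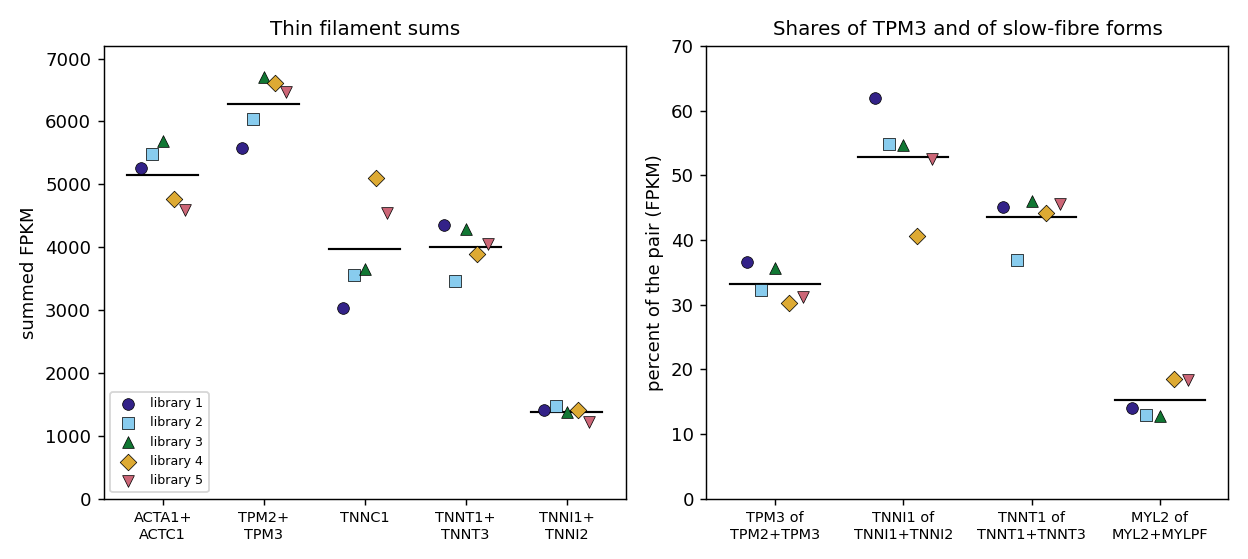
Left, summed FPKM of thin filament subunits in each of the 5 libraries (symbols) with the mean (line); right, the percent that TPM3, TNNI1, TNNT1 and MYL2 make up of their pair. The tropomyosin sum lies above the actin sum in each library, and the 4 shares do not place the libraries in the same order.

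Among the other actins and tropomyosins, ACTA2, the smooth muscle actin gene of vessel walls, was at 50.2, 24.7, 40.9, 34.8 and 20.1 FPKM in libraries 1 to 5, with a mean of 34.1 ± 12.1 (SD, n = 5). Libraries 1 and 3 were the highest for it and libraries 2 and 5 the lowest, as for ACTC1, and ACTC1 was 0.783, 0.307, 0.659, 0.520 and 0.512 of ACTA2. The listed transcripts of TPM1 summed to 15.4, 10.8, 11.1, 13.3 and 8.28 FPKM, a mean of 11.8 ± 2.71. Transcripts 201 and 203 of TPM1 were not analysed here, so this does not measure the whole fast alpha-tropomyosin gene. TPM4, a tropomyosin gene of non-muscle cells, averaged 0.466 ± 0.241 FPKM from 1 listed transcript. The cytoplasmic actin genes ACTB and ACTG1 were not analysed here.

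Marker genes of other cell types were summed beside ACTC1. For smooth muscle and pericytes 6 of 7 markers were listed, and they summed to 99.9, 55.1, 82.4, 69.7 and 45.4 FPKM in libraries 1 to 5, of which ACTA2 made up the largest part. For developing and regenerating muscle 6 of 10 were listed, summing to 27.9, 18.0, 19.4, 21.1 and 19.3 FPKM. The developmental markers were led by the perinatal myosin gene MYH8 at 10.5 ± 1.42 FPKM, and the embryonic myosin gene MYH3 was highest in libraries 1 and 4, at 3.27 and 2.69 FPKM, and at 0.876, 0.290 and 0.553 in libraries 2, 3 and 5. The 3 listed fibroblast markers of 6 summed to between 394 FPKM in library 2 and 845 FPKM in library 1. The 4 endothelial markers, all listed, summed to between 77.7 and 90.3 FPKM, and 2 of 3 leukocyte markers to between 1.77 and 3.97 FPKM.

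For heart muscle 3 of 9 markers were listed, summing to 44.7, 43.0, 32.9, 32.2 and 28.9 FPKM. Nearly all of this was MYH6, the alpha-cardiac myosin gene, at 33.6 ± 6.74 FPKM (SD, n = 5), while the cardiac troponin T gene TNNT2 averaged 1.83 ± 0.261 and the atrial light chain gene MYL4 was under 1.6 FPKM and listed at 0 in library 5. MYH6 closely resembles MYH7, and fragments shared by them could be counted for either. The smooth muscle, fibroblast, endothelial, leukocyte, developmental and heart sums were all highest in library 1, as was ACTC1. The endothelial sum was nearly as high in library 5, at 89.3 FPKM. In that order, 4 of 5, 2 of 3, 3 of 4, 1 of 1, 4 of 4 and 2 of 2 detected markers exceeded their own mean in library 1. Of all 6136 detected genes 3086 did so. The detected markers below their own mean there were PDGFRB, PDGFRA and CDH5. The sum of the skeletal muscle fibre markers was lowest in library 1, as was TPM2, at 5945, 6196, 6605, 7376 and 6516 FPKM in libraries 1 to 5. Its members were divided, and 3 of the 6 lay above their own mean in library 1. MYLPF, MB and CACNA1S were lowest in that library, whereas MYH7 and CKM were highest in it. Library 2, the lowest in ACTC1, had the lowest developmental, fibroblast and endothelial sums but the second highest heart sum. The part of these cell types in the differences of ACTC1 and TPM2 was not tested.

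The genes whose differences between libraries were most like those of each gene were sought among the 1915 other genes with a symbol and a mean of at least 10 FPKM. Likeness was the root mean square difference, over the 5 libraries, between the deviations of log2(FPKM + 1) from each gene's own mean. For ACTC1 the nearest was TNFRSF12A, a receptor of the TNF family, at a difference of 0.23, with 21.8, 4.28, 22.7, 12.7 and 8.36 FPKM in libraries 1 to 5. Also among the nearest were FLNA, the filamin that cross-links actin in non-muscle cells (0.37), the mitochondrial gene ND6 (0.38) and ACTA2 (0.42). The median difference from ACTC1 over all 1915 genes was 0.87.

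For ACTA1 the nearest genes included the chromosome maintenance gene SMC5, the channel kinase gene TRPM7, SCFD1 of vesicle traffic and the kinesin gene KIF3A, at differences of 0.025 to 0.039 against a median of 0.24. None of them is a sarcomere gene, and all averaged between 10.2 and 17.1 FPKM. For TPM2 they were the deubiquitinase gene USP9X, the cation channel gene TMEM38B, SS18L2, the mitochondrial channel gene VDAC1 and MYBPC1, at 0.016 to 0.028 against a median of 0.19. MYBPC1 encodes the slow myosin-binding protein C, and was at 2257, 2547, 2709, 2798 and 2843 FPKM. For TPM3 they were the nuclear export gene XPO1, GASK1B, SH3GLB1, the mitochondrial chaperone gene HSPA9 and ECSIT, at 0.022 to 0.046 against a median of 0.21. None of the 4 genes was among the 5 nearest to another of them. In the order of likeness to ACTA1, TPM3 stood at place 116 of 1915 with a difference of 0.107, TPM2 at 783 and ACTC1 at 1875. With 5 libraries and small deviations, many genes come close by this measure, and it is given as a description. The measure also counts the size of the deviations. ACTC1, at an SD of 0.91 against 0.13 for ACTA1, was bound to lie far from ACTA1 whatever its pattern. The same holds for ACTC1 beside TPM2 and TPM3, so these places do not show an unlike pattern.

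The genes that assemble and cap the thin filament had a somewhat smaller median SD than all detected genes. Of 16 such genes 9 were listed and 8 detected, with a median SD of 0.19 against 0.25 over all detected genes. Their median level was also higher, at 65.0 against 6.38 FPKM, and their SD was not compared at a matched level. NEB led, followed by NRAP, a nebulin-related gene of filament assembly, at 225 ± 50.3 FPKM, and CAPZA2, a subunit of the capping protein at the filament's barbed end, at 121 ± 19.4 FPKM (SD, n = 5). NRAP had the greatest spread of the detected members, from 162 FPKM in library 4 to 301 FPKM in library 1, and TMOD2, a gene of pointed-end capping, averaged 8.27 ± 1.46 FPKM.

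For genes of actin monomer binding and turnover 8 of 14 were listed and 6 detected, with a median SD of 0.22. TMSB10, which binds actin monomers, averaged 408 ± 60.7 FPKM, the severing protein gene GSN 311 ± 24.7 and CAP2, a muscle gene of actin recycling, 131 ± 22.5 (SD, n = 5). CAP2 was lowest in library 1, at 95.7 FPKM. PFN1, the gene of the actin-binding protein profilin, ran from 45.8 FPKM in library 2 to 74.0 in library 4. All 6 detected members lay above their own mean in library 4, as did 3212 of all 6136 detected genes.

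At the Z-disc, where thin filaments are anchored, 13 of 18 genes were listed and 11 detected, with a median SD of 0.26. TCAP, the titin cap gene, averaged 2823 ± 586 FPKM, MYOT, the myotilin gene, 1224 ± 159, and FLNC, the muscle filamin gene, 645 ± 139 (SD, n = 5). Of the 11 detected genes 10 lay above their own mean in library 3, the library in which TPM3 was highest, whereas 3498 of all 6136 detected genes did so. PDLIM3 ran from 417 FPKM in library 1 to 773 in library 5 and PALLD, the palladin gene, from 5.88 FPKM in library 4 to 15.6 in library 3.

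Actin genes are classic targets of the serum response factor, whose partners are held back by free actin, and of the MEF2 and TEAD factors. The list of this group held 14 symbols, with older names of MRTFA and MRTFB among them. Under these symbols 8 genes were listed and all 8 detected, with a median SD of 0.22. SRF, the gene of the serum response factor itself, was not analysed here. FHL1, a LIM-domain gene of muscle, averaged 2910 ± 453 FPKM, TEAD1 66.0 ± 8.10 and MEF2C 65.4 ± 10.2 (SD, n = 5). FHL2 was at 10.2, 2.29, 12.1, 14.8 and 28.7 FPKM in libraries 1 to 5, and TEAD4 at 6.84 FPKM in library 4 and 2.33 in library 3 but under 0.1 in the other 3. No library stood apart by the gap rule in any of the detected genes of these lists.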

How the data were processed

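RNA was sequenced from longissimus dorsi of 5 cattle, 1 library each. Per the file headers, the authors deposited FPKM, 1 value per library and transcript. HTSeq 0.6.0, DESeq2 1.10.1 and the build UMD3.1 appear in the submitters' processing notes with no role stated. The aligner, FPKM program and annotation are not given in the sources used here. No build is claimed for the coordinates, which are the table's own: 7397 of 7423 genes matched by symbol (99.6%), the 4 described here included, overlapped their RefSeq position in ARS-UCD2.0.

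FPKM were summed per gene identifier and analysed as log2(FPKM + 1) in Python 3.11.15 with numpy 2.4.6, pandas 2.3.3 and matplotlib 3.10.9. No counts were given, so no counting interval was computed. Procedures for spread, gaps and likeness were tested on simulated data. The planted gaps and profiles were larger than the differences seen for ACTA1, TPM2 and TPM3, so recovery of differences that small was not tested.

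The genes, lists and tests were chosen with earlier results of these data known. Beside the 4 genes, the rule named in each list the 3 genes with the highest mean and the 2 with the greatest SD, then the 5 nearest in likeness, and the neighbours in order of level. Some genes that this rule names are not reported here. Marker genes and shares were named beside the results they moved with. Alternatives were a pseudocount of 0.1, main transcripts only, equal totals, size factors, detection limits, and each library left out. Sums with ACTA2, TPM1 and TPM4 were added after seeing the data.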

Additional observations from a re-analysis of the deposited data

Results flagged for a closer look

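A gap of 1 library to the others above 0.71 of the range over 5 libraries was met by the following values, where chance gives about 1 in 20 groups and 7.37% of all detected genes met it. TPM3, and with it TPM3-202, its only listed transcript, had a gap ratio of 0.774 with library 3 high at 2390.4 FPKM. ACTA1-202 as a percent of ACTA1, and with it ACTA1-201, had a gap ratio of 0.744 with library 1 apart at 2.92% for ACTA1-202. TNNT1 as a percent of TNNT1 and TNNT3 had a gap ratio of 0.794, with library 2 low at 37.0%.

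Among genes near the 4 genes in level or likeness, COX2 had a gap ratio of 0.816 and MYL6B one of 0.737, both with library 4 high. GASK1B (0.811) and ECSIT (0.713) had library 3 high, and were named for their likeness to TPM3, so this is not separate from the gap of TPM3. Among marker genes MYH11, the smooth muscle myosin gene, had a gap ratio of 0.842 with library 1 high at 7.82 FPKM, and PAX7, the satellite cell gene, one of 0.768 with library 4 low at 0.135 FPKM. PAX7 averaged 0.971 FPKM and was not detected, so the share given for detected genes does not cover it. TMSB4X of the actin monomer list, at a mean of 0.695 FPKM not detected either, had a gap ratio of 0.932 with library 4 high at 3.31 FPKM.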

How the results depend on the processing

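Of 142 recomputed values 138 kept their direction and moved by less than 1 SD for a level or share, 1.5 times for an SD and 10 points for a percentile. In 90 of the 142 a library was left out. Leaving out 1 of 5 libraries cannot move a mean by 1 SD, so for levels and shares this could not have come out otherwise. No value reversed, and all 42 of the pair ratios kept their direction, though none could pass 0.05 with 5 libraries or fewer. Each pair, like the ratio of the actin to the tropomyosin sum, pointed 1 way in all 5 libraries. Leaving out a library could therefore not reverse any of these ratios. The share of the 4 genes was 6.28% of the summed FPKM without mitochondrial genes, by construction of the smaller total. The SD of TPM2 was 0.092 with equal totals. By construction this scaling raised library 1, which had the smallest total, and lowered library 4, which had the largest. The deviation of TPM2 from its mean moved from -0.242 to -0.147 in library 1 and from 0.142 to 0.0324 in library 4. Why the totals differ was not tested. Leaving out each library in turn gave an SD of 0.075 to 0.17 for TPM2 and 0.028 to 0.13 for TPM3, where the lowest values came without library 1 for TPM2 and without library 3 for TPM3. It gave 0.11 to 0.15 for ACTA1, 0.76 to 1.06 for ACTC1, a mean of 15.7 to 23.7 FPKM for ACTC1 and 0.304% to 0.456% for its share of the actin sum. The log2 ratio of the actin to the tropomyosin sum ran from -0.34 to -0.23. With all listed actins and tropomyosins, chosen after seeing the data, it was -0.28. No paired analysis was possible because all libraries form 1 group. Depth is unknown, so the counting error of the low values, ACTC1 and the minor transcripts, could not be given.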
